A study of Homo sapiens with 12 samples.

Results

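The effect of H2O2 that was shared by 2 exposure times was measured in SH-SY5Y neuroblastoma cells that were differentiated with all-trans retinoic acid (ATRA), by setting all 6 H2O2-treated libraries against all 6 ATRA-only libraries. All 12 of the 12 libraries of the series entered, and the experiment was kept as a term of the model so that each treated library was in effect compared with controls of its own experiment. In co-treatment, 3 libraries came from cells given ATRA and H2O2 together for 7 days (co treated) and 3 from cells given ATRA without H2O2 (co control). In pre-treatment, 3 libraries came from cells exposed to H2O2 from 72 hours before the 7 days of ATRA (pre treated) and 3 from cells given ATRA without that exposure (pre control). All 12 libraries therefore share the cell line and the ATRA differentiation, and the groups differ in H2O2 and in its timing. SH-SY5Y is a single subclone of the SK-N-SH line from a neuroblastoma, a tumour of the sympathetic lineage, so the data describe 1 genetic background. The dose is given as 10 mM in the labels, whereas the methods of the study give 10 micromolar. The study reports choosing that dose from several micromolar doses as the least harmful to the cells. The counts themselves do not show the dose.

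H2O2 is a diffusible oxidant that cells remove with catalase, glutathione peroxidases and peroxiredoxins, and that oxidises cysteines of signalling proteins, among them KEAP1, which otherwise holds the antioxidant transcription factor NRF2 in check, and the phosphatases that oppose receptor tyrosine kinases. Oxidative damage to DNA stabilises p53, whose targets include genes of cell cycle arrest, apoptosis and autophagy. ATRA acts through nuclear retinoic acid receptors, and in neuroblastoma cells it slows division and drives the outgrowth of neurites. Neuroblastoma lines can move between a noradrenergic state, kept by factors such as HAND2 and GATA3, and a mesenchymal state rich in vimentin and matrix proteins.

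After ribosomal RNA had been removed, total RNA was sequenced, and 55765 gene symbols were counted in each library. Between 37229000 and 76140100 reads per library fell on genes in the controls and between 27576300 and 98287400 in the treated cells. Pairs of replicates were further apart than sampling of reads alone would place them (a chi-square divided by its degrees of freedom between 24.8 and 545), and the labels do not say whether they were separate cultures, so that p-values measure the spread between these libraries. The 3 pre controls did not resemble each other. Reads outside annotated genes amounted to 0.800 and 0.830 per counted read in pre control replicates 1 and 2, to 0.200 in pre control replicate 3 and to 0.263 to 0.462 in the other 9 libraries. Small RNA loci took 1.58% and 2.88% of counts in pre control replicates 1 and 2, 17.6% in pre control replicate 3 and 5.04% to 15.1% in the others. Results are also given without pre control replicate 3. That leaves replicates 1 and 2 as the only pre controls, whose reads outside genes were furthest from those of the other 9 libraries. Calls gained in that way rest on these 2 libraries for that group, and their part in such calls was not tested.

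The labelled cell type was checked against marker lists. The 12 neuroblastoma identity markers (among them PHOX2A, HAND2, GATA3, ISL1, DBH, TH, CHGA, CHGB, STMN2 and ELAVL4) summed to 3410 to 4788 CPM (counts scaled to a common library size with TMM factors) in the control libraries and 3557 to 4355 in the treated ones, with TH alone below the filter on low counts. Schwann cell and glial markers summed to 7.47 to 8.73 CPM in controls and 7.45 to 9.91 in treated libraries, with FOXD3 and OLIG1 at 0 throughout, and endothelial and blood cell markers to 0.651 to 1.90 and 0.707 to 1.38, with AIF1 at 0. Of 11 neuroblastoma, 7 glial and 1 blood cell markers that were tested, edgeR called none (4, 0 and 0 had an unadjusted p below 0.05, and DESeq2 and limma-voom called none), and the median log2 fold changes of these lists were -0.23, 0.09 and -0.22. Fibroblast markers summed to 545 to 755 CPM in controls and 316 to 585 in treated libraries. Within these sums, PDGFRA held 337 to 545 CPM in controls and 126 to 342 in treated libraries. It was the only called gene of the 8 tested (12.5%, against 0.154% of all genes tested, list median 0.17). At an unadjusted p below 0.05, 2 of the 8 were lower (PDGFRA and PDGFRB) and 3 were higher (COL3A1, DCN and FAP, 37.5% against 4.52% of all genes tested), so that members went both ways, and the part of that sum in other results was not tested. Bulk RNA cannot tell fewer cells of a type from less RNA per cell.

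Of 22148 genes tested with edgeR's quasi-likelihood test, 34 (0.154%) were called at a Benjamini-Hochberg adjusted p below 0.05, 23 of them higher (0.104% of genes tested) and 11 lower (0.0497%) with H2O2. The higher genes were led by SSTR2, a somatostatin receptor, DRAM1, a lysosomal membrane protein of the p53 response, and HBEGF, a ligand of the EGF receptor. HAS2, a hyaluronan synthase, is also among the 23, but none of its control libraries reached the filter on low counts (0.181 CPM), so it was tested only because its treated libraries were high and its call is not used as support. CD38, an enzyme that consumes NAD, and the receptors BMPR1B and FZD7 were among the lower ones. The log2 fold change (log2FC, treated against control) of the higher genes apart from HAS2 ran from 0.54 to 2.73 (MCAM and RP11-54O7.3). Among the lower genes it ran from -0.59 to -1.41 with a median of -0.87, and 3 of 11 were below -1, while the median over all genes tested was -0.01. In all, 2850 genes had an unadjusted p below 0.05, 1001 of them higher (4.52% of genes tested) and 1849 lower (8.35%), and the counts of listed genes at that level are to be read against these shares. Of 29 called genes with a position on hg19, all protein-coding, 14 share exon bases with another annotated gene and 12 of these with a gene on the opposite strand (among them MCAM with CBL and MEST with COPG2), whose reads can be told apart only if the counting used the strand. SSTR2, PDGFRA and ACTA2 share exon bases with a gene on the same strand, where the strand cannot tell reads apart.

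The values of single libraries stood apart by treatment for most of these genes. For 27 of the 34, all 6 treated libraries lay on the same side of all 6 controls (20 higher and 7 lower), against 219 of all genes tested (0.989%). The other 7 included BMPR1B, PDGFRA, CCL2, SLC35D3, SPRY1 and MCAM. Within each experiment taken alone, the groups of 3 were apart in both for 33 of the 34, against 1.90% of genes tested, and SPRY1 was the exception, with overlap in pre-treatment. The call was made on these same libraries, so the separations describe the called genes and are no further support. HAS2 is included in both counts. In every lower called gene the highest control was pre control replicate 2, the library with the most reads outside genes per counted read. It was also the lowest control of some higher genes, SSTR2 and HBEGF among them, but not of DRAM1 or VIM. The map of the called genes by library shows the split by treatment for the higher and the lower block.

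**Figure D1:**
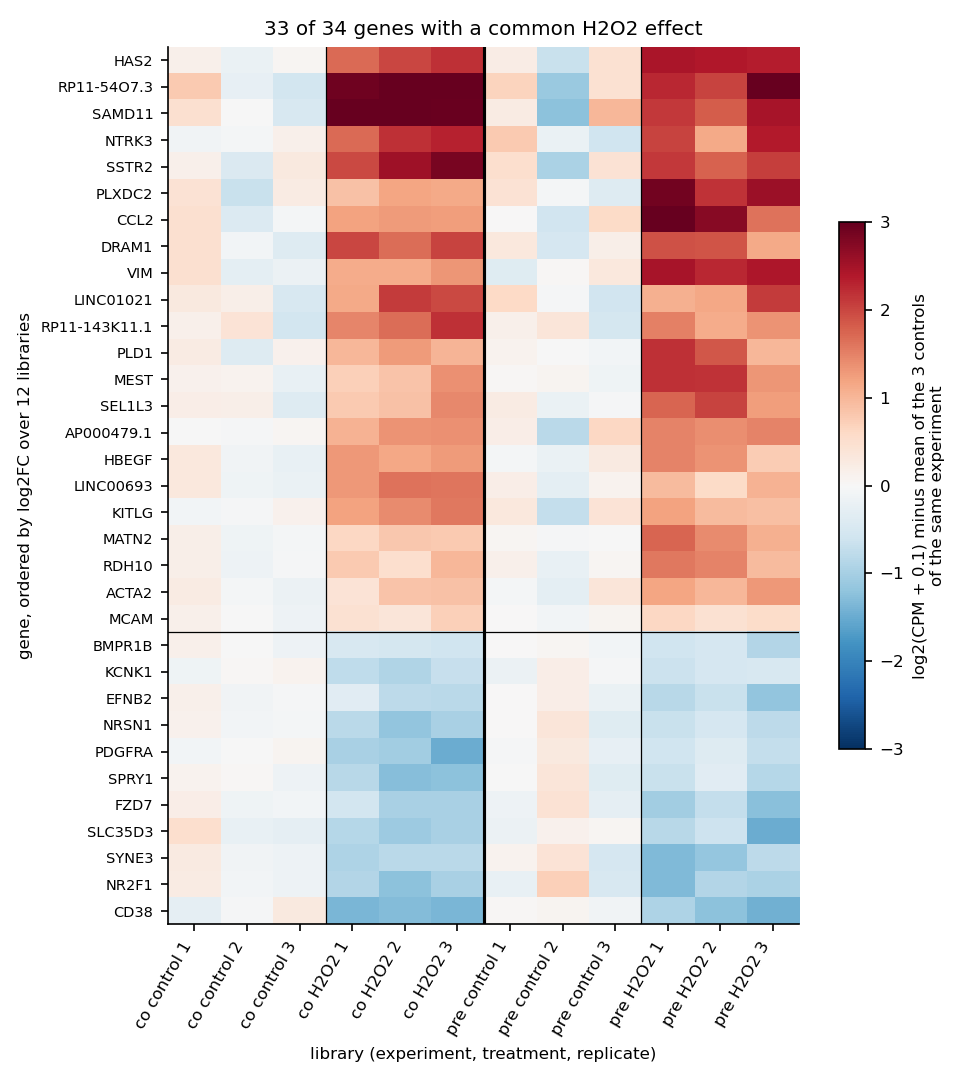
Heat map of 33 of the 34 called genes (rows, ordered by log2FC over 12 libraries) in the 12 libraries (columns), with colour giving log2(CPM + 0.1) minus the mean of the 3 controls of the same experiment. The 22 genes above the horizontal line are red in the treated columns and the 11 below it are blue, and the control columns stay nearer to white.

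All 34 called genes had the same sign in co-treatment and in pre-treatment, as had 12032 of all genes tested (54.3%). The call was made on these same libraries, so the shared sign is a description of the called genes. In absolute size the change was larger in co-treatment for 17 of them and larger in pre-treatment for the other 17. When the effects of the 2 experiments were tested against each other, none of the 34 was called (lowest adjusted p 0.378). Of all genes tested, 0.0316% were called in it. An unadjusted p below 0.05 was seen in 6 of the 34 and in 2029 of all 22148 genes. The common-effect fit counts a difference between the experiments as spread, which works against calling genes that differ. The lack of interaction calls among the 34 is therefore no support for equal effects. With the effect estimated for each experiment alone in a fit of 4 groups, edgeR called 3 genes for co-treatment (0.0135% of genes tested) and 69 for pre-treatment (0.312%). Of the 34 genes, 0 were among the former and 12 (35.3% of the 34, and 17.4% of the 69) among the latter, and 22 of the 34 were called in neither experiment alone.

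**Figure D2:**
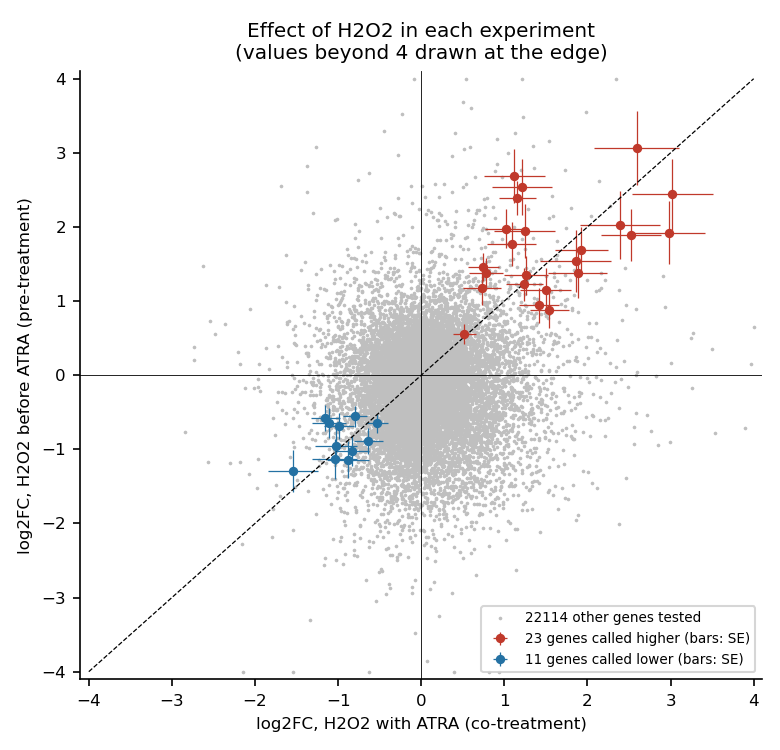
Effect of H2O2 on each of 22148 genes in co-treatment (x axis, log2FC) and in pre-treatment (y axis, log2FC), with standard errors drawn for the called genes. The 23 higher genes lie in the upper right quadrant and the 11 lower genes in the lower left, on both sides of the dashed line of equal effect, whereas 54.3% of all genes tested share a sign.

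Receptors formed the list with the most called genes (11.9% of those tested, against 0.154% of all genes tested). The lists were drawn up with earlier results of these data known, so neither this ranking nor the share called in any list is support. The list of growth factor and cytokine receptors also holds other receptors, SSTR2 and FZD7 among them. Of its 42 genes tested, 2 rose (SSTR2 and NTRK3) and 3 fell (BMPR1B, FZD7 and PDGFRA), and the median log2FC of the list was -0.05. SSTR2, which couples somatostatin to inhibitory G proteins, lies on hg19 at chromosome 17, 71161149 to 71172772. Its level was 1.25, 2.44 and 3.58 CPM (lowest, median and highest) in the 6 controls and 8.55, 11.01 and 15.6 CPM in the 6 treated libraries. The highest control was below the lowest treated library, and the log2FC was 2.20 (SE 0.26, adjusted p = 0.00748). The rise was 2.52 (SE 0.37) in co-treatment and 1.89 (SE 0.35) in pre-treatment on the log2 scale.

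NTRK3 encodes TrkC, the receptor of neurotrophin-3 (chromosome 15, 88402982 to 88800022). It was read at 0.227, 0.327 and 0.754 CPM in controls and 0.983, 1.89 and 2.49 CPM in treated libraries, with no overlap, and rose by a log2FC of 2.20 (SE 0.33, adjusted p = 0.0177). BMPR1B is a type I receptor of bone morphogenetic proteins (chromosome 4, 95679106 to 96079599). Its controls held 63.9, 82.9 and 95.1 CPM and its treated libraries 46.9, 50.6 and 64.7 CPM, which overlapped across experiments but not within either, and the log2FC was -0.59 (SE 0.09, adjusted p = 0.0188). FZD7, a Frizzled receptor of Wnt ligands (chromosome 2, 202898578 to 202903164), had 81.5, 90.4 and 140.2 CPM in controls and 44.02, 48.2 and 63.5 CPM in treated libraries. All treated values of FZD7 were below all control values, with a log2FC of -0.92 (SE 0.14, adjusted p = 0.0188).

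PDGFRA, a receptor tyrosine kinase for platelet-derived growth factors (chromosome 4, 55095447 to 55164412), had 337, 376 and 545 CPM in controls and 126, 228 and 342 CPM in treated libraries. Its log2FC was -0.87 (SE 0.15, adjusted p = 0.0347), with -1.15 in co-treatment and -0.58 in pre-treatment. The highest treated value, in pre-treatment, was above the lowest control, so the 12 values overlapped although the groups of each experiment did not. At an unadjusted p below 0.05, 11 receptors were higher and 12 lower, the called ones included. TLR4, the receptor of bacterial lipopolysaccharide, was among them with 0.0582, 0.251 and 0.488 CPM in controls and 0.566, 1.41 and 1.99 CPM in treated libraries, without overlap (log2FC 2.38, SE 0.45, adjusted p = 0.0562). HRH1, a histamine receptor, had a log2FC of 1.73 (adjusted p = 0.0635), EDNRA, an endothelin receptor, of 1.04 (adjusted p = 0.0807), and IL17RD, a feedback inhibitor of FGF signalling, of -1.15 (adjusted p = 0.0746). These 4 passed without pre control replicate 3, with adjusted p-values of 0.0416, 0.0323, 0.0311 and 0.0179, and the list then held 6 higher and 4 lower calls.

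The ligands gave calls in 1 direction by edgeR and limma-voom, while DESeq2 called 5 higher and 1 lower. Among 33 growth factors and cytokines tested, edgeR called 3 (9.09%, against 0.154% of all genes tested), HBEGF, KITLG and CCL2, and all rose. At an unadjusted p below 0.05, 11 were higher and 4 lower. The median log2FC of the list was 0.28. HBEGF, which is shed from the cell surface to activate the EGF receptor, lies at chromosome 5, 139712428 to 139726188. It had 4.26, 4.69 and 6.26 CPM in controls and 8.51, 12.3 and 14.0 CPM in treated libraries, which did not overlap. The change was nearly equal in the 2 experiments, at 1.24 (SE 0.22) in co-treatment and 1.23 (SE 0.22) in pre-treatment, and 1.23 (SE 0.15, adjusted p = 0.00748) over all libraries.

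KITLG encodes stem cell factor, the ligand of the receptor KIT (chromosome 12, 88886570 to 88974628). Controls held 15.0, 26.5 and 32.8 CPM and treated libraries 45.9, 58.5 and 77.1 CPM, all treated values being above all controls, and the log2FC was 1.18 (SE 0.17, adjusted p = 0.0177). By group, KITLG was at 25.7 ± 2.07 CPM (SD, n = 3) in co control and 68.5 ± 8.72 in co treated libraries, and at 26.1 ± 9.74 in pre control and 50.4 ± 6.08 in pre treated libraries. CCL2, a chemokine that attracts monocytes (chromosome 17, 32582293 to 32584227), had 1.52, 3.86 and 7.89 CPM in controls and 7.31, 13.7 and 19.8 CPM in treated libraries. The lowest treated value of CCL2 was below the highest control, from the other experiment, and the log2FC was 1.87 (SE 0.32, adjusted p = 0.0354), with 1.21 in co-treatment and 2.54 in pre-treatment.

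LIF, a cytokine of the interleukin-6 family, just missed the threshold. It had 0.382, 0.753 and 0.953 CPM in controls and 1.18, 2.03 and 2.87 CPM in treated libraries, with every treated value above every control, a log2FC of 1.53 (SE 0.28) and an adjusted p of 0.0539, which became 0.028 without pre control replicate 3. Endothelin 1 (EDN1, log2FC 1.88, adjusted p = 0.165) and the neuropeptide galanin (GAL, log2FC -0.72, adjusted p = 0.177) did not pass by edgeR with or without that library. DESeq2 called both (adjusted p = 0.00442 and 0.032).

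**Figure D3:**
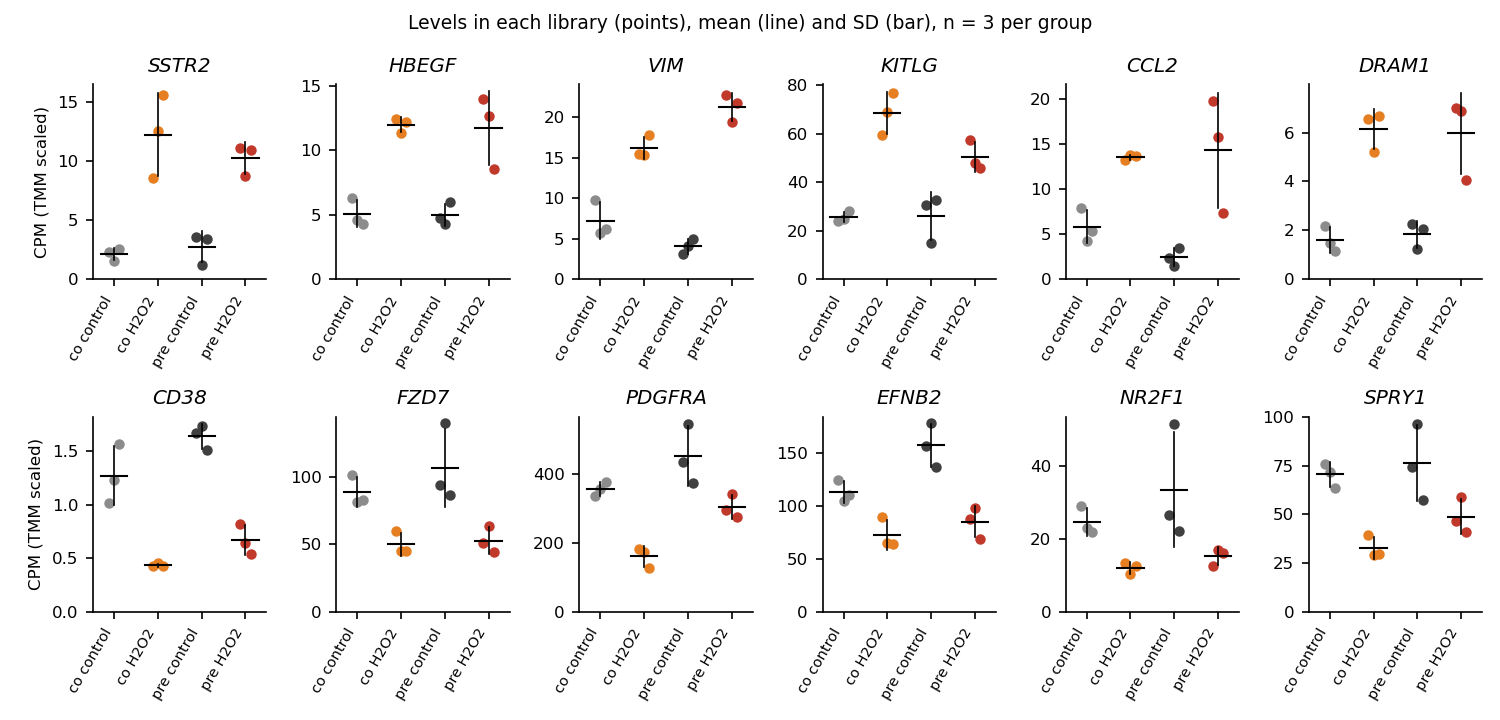
Levels of 6 genes called higher (top) and 6 called lower (bottom) in each library as CPM on linear axes from 0, with points for the 3 libraries of each group, a horizontal line for their mean and a vertical bar for the SD. Treated points (orange, red) lie above the controls of the same experiment (light and dark grey) in the top panels and below them in the bottom panels, except for SPRY1 in pre-treatment, where the groups overlap.

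Genes downstream of receptor tyrosine kinases went both ways. Of 32 immediate early and AP-1 related genes tested, 3 were called (9.375%, against 0.154% of all genes tested). Of these, 2 rose, HBEGF among them, and SPRY1 fell. At an unadjusted p below 0.05, 12 were lower and 5 higher, with a list median of -0.28. SPRY1, a feedback inhibitor of receptor tyrosine kinase signalling (chromosome 4, 124317950 to 124324915), had 57.6, 73.2 and 96.8 CPM in controls and 29.0, 40.3 and 58.7 CPM in treated libraries. Its groups overlapped, and the log2FC was -0.87 (SE 0.15, adjusted p = 0.039). The related feedback genes SPRY2 (-0.56), SPRY4 (-0.66), SPRED1 (-0.27) and DUSP6 (-0.33) had negative log2FC values that did not pass, with adjusted p-values from 0.251 to 0.345. EGR1, an early transcription factor, had a log2FC of -1.49 (adjusted p = 0.209).

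In the axon guidance list, EFNB2 fell and was the only call among 48 genes tested (2.08%, against 0.154% of all genes tested). At an unadjusted p below 0.05, 20 were lower and 5 higher, around a median of -0.39. EFNB2 is a membrane-bound ligand of Eph receptors that guides axons and vessels (chromosome 13, 107142093 to 107188010). It had 104, 131 and 178 CPM in controls and 64.2, 78.4 and 98.1 CPM in treated libraries, without overlap, and a log2FC of -0.76 (SE 0.12, adjusted p = 0.0278). The semaphorin SEMA5A (log2FC -1.03, adjusted p = 0.156) and the netrin receptor UNC5C (-0.54, adjusted p = 0.222) passed without pre control replicate 3 but not over all 12 libraries (adjusted p = 0.0157 and 0.0479). Among the higher genes, the semaphorin co-receptor NRP1 (log2FC 2.08, adjusted p = 0.131) did not pass with or without that library. DESeq2 called 3 higher and 5 lower genes in this list.

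Promoter sequences were compared between the called genes and all genes. RefSeq entries on GRCh38.p14 matched 24 of the 34 called genes with 36 windows of the 250 bases before a transcript start. The core of the antioxidant response element bound by NRF2 (TGACNNNGC, on either strand) was found in 4 of these 36 windows (11.1%), those of SSTR2, which rose, and of EFNB2, BMPR1B and SYNE3, which fell, against 10.9% of the 35116 windows of all genes. The AP-1 site TGANTCA occurred in 1 window (PDGFRA; 2.78% against 6.57%), the hypoxia response element core ACGTG in 3 (8.33% against 18.5%), the TEAD site GGAATG in 2 (5.56% against 11.9%) and the NF-kB site, GGGA and CC parted by 4 bases, in 6 (16.7% against 22.6%). The full p53 response element had no match in them and 6 in all windows. SSTR2 (chr17:73164760-73165009, plus strand) and EFNB2 (chr13:106535663-106535912, minus strand) are shown as the pair with the same core and opposite changes, with capitals marking TGACNNNGC and, nearer the start of the SSTR2 window, the NF-kB letters read on the opposite strand.
SSTR2: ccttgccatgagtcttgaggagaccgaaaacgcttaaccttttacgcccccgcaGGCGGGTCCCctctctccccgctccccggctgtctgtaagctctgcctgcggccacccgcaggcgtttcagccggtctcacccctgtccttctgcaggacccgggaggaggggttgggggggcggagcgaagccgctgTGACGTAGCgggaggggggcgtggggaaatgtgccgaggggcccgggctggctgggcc
EFNB2: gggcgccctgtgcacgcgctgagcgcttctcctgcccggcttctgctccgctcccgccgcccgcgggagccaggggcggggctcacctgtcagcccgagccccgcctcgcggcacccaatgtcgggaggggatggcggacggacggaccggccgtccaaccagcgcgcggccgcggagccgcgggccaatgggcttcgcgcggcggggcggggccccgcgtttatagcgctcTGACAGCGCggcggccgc
These matches are of letters only and say nothing of binding.

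Mesenchymal and extracellular matrix genes gave 4 calls of 55 tested (7.27%, against 0.154% of all genes tested), all higher. These were VIM, MATN2, ACTA2 and HAS2, the last of which was tested only through its treated libraries. At an unadjusted p below 0.05, 19 were higher and 10 lower, and the median of the list was 0.08. HAS2, which makes the matrix polysaccharide hyaluronan (chromosome 8, 122624356 to 122653680), was near the limit of detection without H2O2. Its controls had 0.0223, 0.137 and 0.166 CPM, with 1 count in the lowest library, and its treated libraries 0.672, 0.916 and 0.989 CPM, and no fold change or p is given, since it entered the test only through the treated libraries. VIM, the intermediate filament vimentin (chromosome 10, 17270240 to 17279592), had 3.11, 5.35 and 9.82 CPM in controls and 15.3, 18.6 and 22.8 CPM in treated libraries, all of which were above all controls. The log2FC of VIM was 1.77 (SE 0.23, adjusted p = 0.011), with 1.16 (SE 0.22) in co-treatment and 2.39 (SE 0.23) in pre-treatment, and the test of that difference gave an adjusted p of 0.378.

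MATN2, a matrilin that bridges matrix proteins (chromosome 8, 98881068 to 99048952), had 4.31, 4.92 and 6.49 CPM in controls and 8.84, 10.0 and 15.2 CPM in treated libraries (log2FC 1.11, SE 0.16, adjusted p = 0.0177). ACTA2, smooth muscle actin (chromosome 10, 90694831 to 90751096), had 2.19, 3.09 and 3.97 CPM in controls and 4.52, 6.16 and 6.86 CPM in treated libraries (log2FC 0.95, SE 0.17, adjusted p = 0.042). Neither overlapped between treated and control. ACTA2 shares exon bases on the opposite strand with FAS, whose log2FC was 1.13 (adjusted p = 0.14), and the strand setting of the counting is not given in the sources used here. Annexin A2 (ANXA2, log2FC 1.36, adjusted p = 0.052), tropomyosin 1 (TPM1, 0.93, 0.0635) and tenascin C (TNC, -0.92, 0.157), a matrix glycoprotein, passed without pre control replicate 3 but not over all 12 libraries (adjusted p = 0.0311, 0.0436 and 0.0323). TNC was at 5.38, 7.70 and 16.3 CPM in controls and 3.39, 3.96 and 8.42 CPM in treated libraries, which overlapped. Connective tissue growth factor (CTGF, 3.16), matrix Gla protein (MGP, 2.36) and the hyaluronan receptor CD44 (1.18) had positive log2FC values, and collagen 17 (COL17A1, -1.75) a negative one, with adjusted p-values from 0.0601 to 0.168.

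The noradrenergic core, the opposite state, had no call by edgeR or limma-voom among 30 genes tested and 4 by DESeq2. At an unadjusted p below 0.05, 14 were lower and 2 higher, and the median was -0.40. The largest of these were DACH1 (log2FC -1.34, adjusted p = 0.0846), DBH, the enzyme that makes noradrenaline (-0.99, 0.255), TFAP2B (-0.90, 0.209) and SOX11 (-0.84, 0.233). DACH1 and TFAP2B passed without pre control replicate 3 (adjusted p = 0.0169 and 0.0416).

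Retinoic acid genes held a call in each direction among 25 tested (8% called, against 0.154% of all genes tested), with a median of -0.21. RDH10, which oxidises retinol to retinal in the making of retinoic acid (chromosome 8, 74206837 to 74237516), had 5.35, 8.21 and 11.8 CPM in controls and 12.2, 17.9 and 21.0 CPM in treated libraries. The treated values of RDH10 were all higher, with a log2FC of 1.08 (SE 0.16, adjusted p = 0.0183). NR2F1, the orphan nuclear receptor COUP-TFI (chromosome 5, 92918928 to 92930317), had 21.8, 24.8 and 51.5 CPM in controls and 10.3, 12.8 and 17.0 CPM in treated libraries. It fell by 1.09 on the log2 scale (SE 0.18, adjusted p = 0.0354), and the highest control was pre control replicate 2, as in the other lower called genes. ALDH1A2, which makes retinoic acid from retinal, had 0.756, 1.30 and 2.72 CPM in controls and 2.01, 3.12 and 8.83 CPM in treated libraries, with overlap across experiments (log2FC 1.46, SE 0.30, adjusted p = 0.0702, and 0.0479 without pre control replicate 3). CYP26B1, which breaks retinoic acid down, had a log2FC of -1.58 (adjusted p = 0.341).

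CD38, an ectoenzyme that turns NAD into cyclic ADP-ribose (chromosome 4, 15779898 to 15854855), had the largest fall of the 11 lower genes. Controls held 1.02, 1.54 and 1.74 CPM and treated libraries 0.424, 0.496 and 0.817 CPM, apart in every library, with a log2FC of -1.41 (SE 0.21, adjusted p = 0.0177). Group means were 1.27 ± 0.279 CPM (SD, n = 3) against 0.434 ± 0.0146 in co-treatment, and 1.64 ± 0.117 against 0.668 ± 0.140 in pre-treatment. CD38 and CCL2 were the calls, in opposite directions, of 24 genes tested of the NF-kB, MHC class I and interferon list. They made up 8.33% of those tested, against 0.154% of all genes. The list median was 0.09, with 5 higher and 2 lower at an unadjusted p below 0.05.

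Of the stress responses, p53 targets had 1 call in 29 genes tested (3.45%, against 0.154% of all genes tested). DRAM1, a lysosomal membrane protein that p53 induces in autophagy (chromosome 12, 102271358 to 102405908), had 1.16, 1.75 and 2.26 CPM in controls and 4.07, 6.62 and 6.99 CPM in treated libraries. The 6 treated libraries were all above the 6 controls, and the log2FC was 1.81 (SE 0.22, adjusted p = 0.00748), with 1.93 in co-treatment and 1.69 in pre-treatment. At an unadjusted p below 0.05, 7 p53 targets were higher and 0 lower, and the median was 0.16. Among them, the death receptor FAS, the nuclease AEN (log2FC 0.33, adjusted p = 0.297) and the cell cycle inhibitor CDKN1A (0.58, 0.305) passed without pre control replicate 3 (adjusted p = 0.0311, 0.043 and 0.0416). CDKN1A was at 1.09 in co-treatment and 0.07 in pre-treatment on the log2 scale. LINC01021, a long noncoding RNA also known as PURPL and induced by p53, was called outside the list.

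NRF2 targets and antioxidant enzymes, the classical response to peroxide, had no call by edgeR or limma-voom among 42 genes tested. DESeq2 called 2, and 5 were higher and 2 lower at an unadjusted p below 0.05, around a median of 0.11. AKR1C3, an aldo-keto reductase of steroids and prostaglandins (chromosome 10, 5077546 to 5149878), had 1.63, 3.69 and 5.92 CPM in controls and 6.62, 8.15 and 10.3 CPM in treated libraries. All treated values were above all controls, with a log2FC of 1.14 (SE 0.25, adjusted p = 0.0996). AKR1C3 and its near-identical relative AKR1C1 (log2FC 0.65, adjusted p = 0.119) can share reads, and both passed without pre control replicate 3 (adjusted p = 0.0179 and 0.0416), as did the peroxiredoxin PRDX1 (0.42, 0.0416). Heme oxygenase 1 (HMOX1) had a log2FC of 0.51 (adjusted p = 0.528).

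HIF targets and glycolysis genes likewise had no call by edgeR or limma-voom among 44 tested and 7 by DESeq2. At an unadjusted p below 0.05, 15 were lower and 3 higher, with a median of -0.16. PDK1, a kinase that inhibits pyruvate dehydrogenase (chromosome 2, 173420101 to 173473397), had 12.8, 17.4 and 26.0 CPM in controls and 7.29, 10.4 and 12.6 CPM in treated libraries, all below the controls, with a log2FC of -0.85 (SE 0.18, adjusted p = 0.0902). The oxygen sensor EGLN1 (-0.49, 0.0865), adenylate kinase AK4 (-1.16, 0.107) and hexokinase HK2 (-0.87, 0.19) had negative log2FC values, and EGLN3 (0.82, 0.175) a positive one, each given with its adjusted p. PDK1, EGLN1 and AK4 passed without pre control replicate 3 (adjusted p = 0.0368, 0.0415 and 0.043).

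The heat shock list (17 tested, median 0.18) and the ATF4 and unfolded protein response list (31 tested, median -0.02) had no call by edgeR or limma-voom, with 5 and 4 genes at an unadjusted p below 0.05 and 2 and 0 called by DESeq2. The small heat shock protein HSPB8 had a log2FC of 2.18 (adjusted p = 0.0719), and the endoplasmic reticulum chaperone HSPA5 of -0.67 (adjusted p = 0.223).

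**Figure D4:**
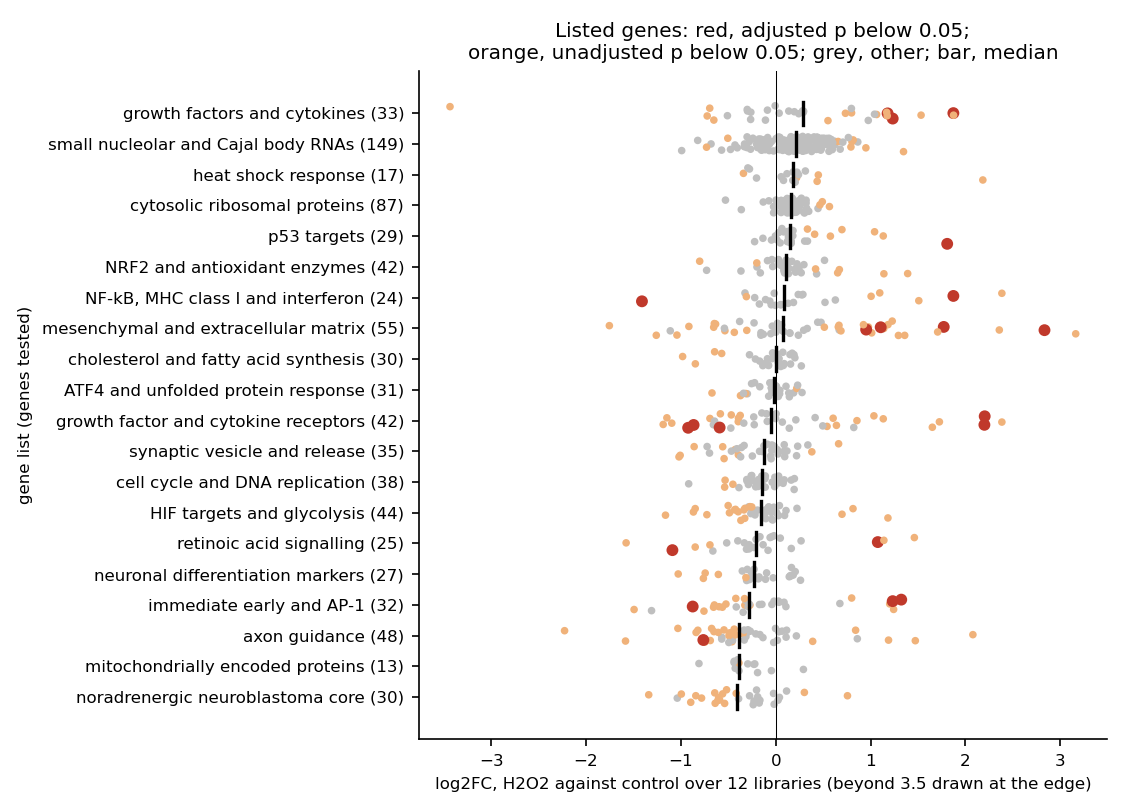
Log2FC of H2O2 against control over 12 libraries (x axis) for each tested gene of the gene lists (y axis, genes tested in brackets), ordered by the list median, which is drawn as a bar. Red points are the called genes, orange points have an unadjusted p below 0.05 only, and list medians run from -0.40 for the noradrenergic core to 0.28 for growth factors and cytokines.

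Neuronal differentiation markers had no call among 27 genes tested by edgeR, DESeq2 or limma-voom, with 5 lower and 0 higher at an unadjusted p below 0.05 and a median of -0.23. TUBB3, neuronal beta-tubulin, had 566, 853 and 978 CPM in controls and 488, 645 and 864 CPM in treated libraries (log2FC -0.30, SE 0.15, adjusted p = 0.414). MAPT, the protein tau, had 10.8, 17.8 and 30.4 CPM and 10.3, 12.3 and 15.8 CPM (log2FC -0.60, SE 0.21, adjusted p = 0.279). Both overlapped between treated and control, as did ENO2, neuronal enolase (log2FC -0.23, SE 0.11, adjusted p = 0.403), MAP2, a dendritic microtubule protein (-0.18, 0.12, 0.566), and SV2A, a synaptic vesicle protein (-0.23, 0.13, 0.489). Synaptic vesicle and release genes had no call by edgeR or limma-voom among 35 tested and 1 by DESeq2, with 7 lower and 2 higher at an unadjusted p below 0.05 and a median of -0.12.

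NRSN1 and KCNK1, which are in none of the lists, fell. NRSN1, neurensin 1, is a vesicle membrane protein of neurons (chromosome 6, 24126414 to 24155128) and had 39.0, 48.5 and 64.6 CPM in controls and 21.2, 28.4 and 35.2 CPM in treated libraries (log2FC -0.83, SE 0.13, adjusted p = 0.0188). KCNK1, a potassium leak channel (chromosome 1, 233749852 to 233808260), had 16.4, 19.0 and 21.2 CPM and 10.3, 11.9 and 13.2 CPM (log2FC -0.68, SE 0.10, adjusted p = 0.0188). Neither gene had a treated library at or above a control.

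Further called genes lay outside these groups. SAMD11 (chromosome 1, 859303 to 879955) rose from 1.03, 3.37 and 5.27 CPM in controls to 9.23, 22.4 and 31.8 CPM in treated libraries without overlap (log2FC 2.45, SE 0.33, adjusted p = 0.0126), and it shares exon bases with NOC2L on the opposite strand. The transcript RP11-54O7.3, for which no position was matched, had 0.446, 1.26 and 2.16 CPM in controls and 4.73, 9.91 and 12.3 CPM in treated libraries (log2FC 2.73, SE 0.34, adjusted p = 0.00748). AP000479.1, also unmatched, had 7.25, 15.9 and 20.0 CPM and 33.3, 36.3 and 41.8 CPM (log2FC 1.30, SE 0.18, adjusted p = 0.0139). In both unmatched transcripts every treated library was above every control.

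MEST, an imprinted gene of the hydrolase fold (chromosome 7, 130126012 to 130146306), had 2.90, 3.49 and 4.64 CPM in controls and 7.03, 9.60 and 14.8 CPM in treated libraries (log2FC 1.4996, SE 0.22, adjusted p = 0.0177), with 1.02 in co-treatment and 1.98 in pre-treatment. SLC35D3, of the nucleotide sugar transporter family (chromosome 6, 137243439 to 137246798), had 10.3, 17.3 and 21.0 CPM in controls and 5.78, 6.78 and 12.6 CPM in treated libraries, with overlap across experiments (log2FC -0.99, SE 0.17, adjusted p = 0.039). SYNE3, which tethers intermediate filaments to the nuclear envelope (chromosome 14, 95873603 to 95982987), had 4.72, 6.37 and 8.97 CPM and 2.62, 3.23 and 3.90 CPM without overlap (log2FC -1.01, SE 0.18, adjusted p = 0.0392). It was the only called gene for which pre control replicate 3 was nearer to the treated median than to the median of the other 5 controls.

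The 7 called genes that no naming rule covered are given here after their values were seen, and all rose. PLXDC2, a plexin domain protein of the cell surface, had the largest log2FC of them (1.94, SE 0.34, adjusted p = 0.0392), from 0.340, 0.709 and 1.01 CPM in controls to 1.20, 2.55 and 5.9998 CPM in treated libraries. MCAM, an adhesion molecule, had the smallest (0.54, SE 0.09, adjusted p = 0.0399), from 15.9, 18.3 and 23.4 CPM to 23.3, 26.6 and 34.8 CPM with overlap. LINC01021 had 0.575, 0.998 and 1.43 CPM in controls and 2.02, 3.19 and 4.51 CPM in treated libraries (log2FC 1.70, SE 0.29, adjusted p = 0.039). The log2FC was 1.63 for RP11-143K11.1, 1.61 for phospholipase D1 (PLD1), 1.43 for SEL1L3 and 1.21 for LINC00693, with adjusted p-values from 0.0188 to 0.0337, and none of these 4 overlapped between treated and control.

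Lists of housekeeping functions held no call by edgeR or limma-voom. These were cell cycle and DNA replication (38 tested, median -0.14), cholesterol and fatty acid synthesis (30, -6.675e-05), mitochondrially encoded proteins (13, -0.39), cytosolic ribosomal proteins (87, 0.17) and small nucleolar and Cajal body RNAs (149, 0.21). In that order 3, 4, 1, 3 and 8 of them had an unadjusted p below 0.05, and DESeq2 called 0, 2, 0, 0 and 2. The median of the small nucleolar and Cajal body RNAs was -0.11 in co-treatment and 0.56 in pre-treatment, where pre control replicates 1 and 2 held 1.58% and 2.88% of counts on small RNA loci. With those loci removed before scaling, an alternative chosen after seeing the data, 52 genes were called, and the interaction still gave 7 calls. The 52 included all 34, HAS2 among them, in the same direction.

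Whether the effect differed between the exposure times was tested as the interaction of H2O2 and experiment. For 7 genes (0.0316% of 22148) edgeR called a difference, 6 with a more positive effect in pre-treatment and 1 with a more negative one, and 2029 had an unadjusted p below 0.05. The count was 2041 without pre control replicate 3, 0 without co treated replicate 3 (1483 at an unadjusted p below 0.05) and 1 to 5 without any other library. None of the 7 was among the 34 genes of the common effect. The fit of that effect counts such a difference as spread, so the lack of overlap is no further result. SLC8A1, a sodium-calcium exchanger (chromosome 2, 40324410 to 40838193), had 8.55 ± 0.801 CPM (SD, n = 3) in co control and 5.71 ± 0.179 in co treated libraries, but 3.87 ± 0.123 in pre control and 10.3 ± 0.767 in pre treated libraries. ENC1, an actin-binding protein of neurons (chromosome 5, 73923231 to 73937249), went the other way, from 12.7 ± 1.80 to 32.4 ± 3.16 CPM in co-treatment and from 25.04 ± 0.201 to 16.8 ± 2.70 CPM in pre-treatment. The difference of the log2FC, pre-treatment minus co-treatment, was 1.99 (SE 0.22, adjusted p = 0.00822) for SLC8A1 and -1.93 (SE 0.22, adjusted p = 0.00822) for ENC1. CXCR4, a chemokine receptor, had a log2FC of -0.69 in co-treatment and 0.69 in pre-treatment (SE 0.34 and 0.34), which left a common log2FC of -0.000913 (SE 0.31, adjusted p = 0.999), and the difference did not pass (adjusted p = 0.503).

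How far the 34 calls rest on single libraries was measured by leaving out each in turn. SSTR2, DRAM1, HBEGF and RP11-54O7.3 were called in all 12 such fits, VIM and SAMD11 in 11, and MCAM and SYNE3 in 1. HAS2 was tested in 7 of the 12, and since that depended on its treated libraries, its calls there say nothing about stability. The number of calls was 5 without co control replicate 2, 11 without co treated replicate 2, 6 without co treated replicate 3, 9 without pre treated replicate 1, 195 without pre control replicate 3, and 25 to 35 without any other library. The 195 calls (0.886% of 22020 genes tested) were 86 higher and 109 lower and included all 34, which made up 17.4% of them. Their pre controls were replicates 1 and 2 alone. Apart from HAS2, the 34 kept their direction, with an unadjusted p below 0.05, in every fit in which they were tested. These fits reuse libraries on which the calls were made, so this is a description of the called genes.

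**Figure D5:**
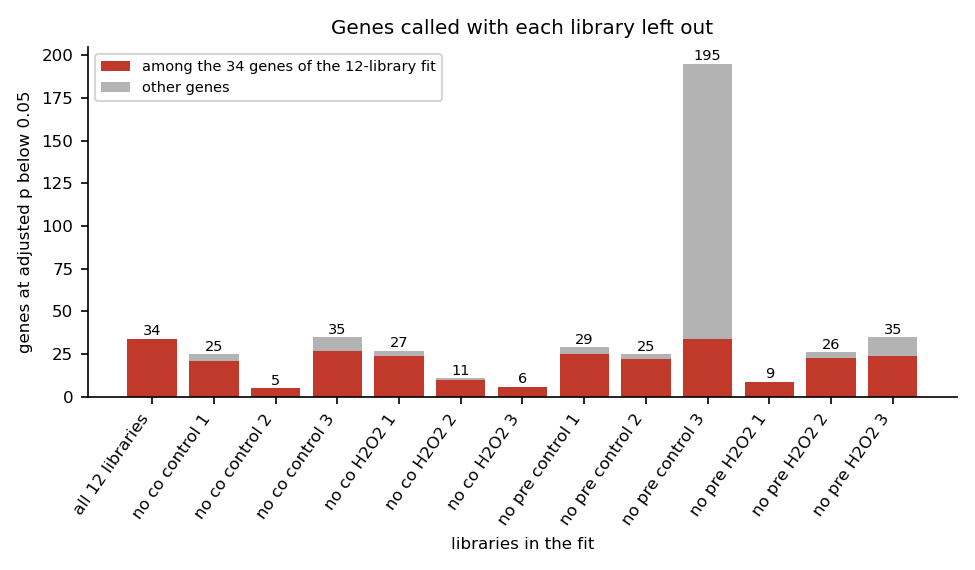
Number of genes called at an adjusted p below 0.05 (y axis) over all 12 libraries and with each library left out (x axis), with the part that is among the 34 genes in red and other genes in grey. The bars without a library run from 5 to 195, and the grey part is largest without pre control replicate 3.

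The other tools placed the count elsewhere. DESeq2 called 477 genes (2.15%), 219 higher and 258 lower, which included all 34, and limma-voom called 47 (0.212%), 33 higher and 14 lower, which included 33 of the 34.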

How the data were processed

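The authors sequenced 12 stranded libraries of total RNA, depleted of ribosomal RNA, from SH-SY5Y cells. Per the submitters' processing notes, the tools were FastQC 0.11.8, cutadapt 2.10 for trimming, HISAT2 2.1.0 for alignment (hg19) and HTSeq 0.7.2 for counting by gene symbol. The strand setting and the annotation version are not given in the sources used here. The authors deposited raw counts per gene, with 5 closing entries for reads not counted on a gene (40.0% to 59.9% of all entries of a library), which were left out of library sizes and tests. Their comparison tables, which hold log2 fold changes, mean log2 CPM, p-values and FDR, were not used.

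In R 4.3.3, counts were scaled with TMM factors and tested with edgeR 4.0.16 (quasi-likelihood, terms for experiment and H2O2, Benjamini-Hochberg adjustment, threshold 0.05). The filter asked for 0.181 CPM, which 5 counts give in the smallest library, in 6 or more libraries. The interaction, the effect within each experiment (4 groups), DESeq2 1.42.0, limma 3.58.1 (voom), other scalings and filters, a replicate block, fold thresholds and each library left out were computed as alternatives. Fits were tested on simulated data.

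Named genes were the 12 called genes of smallest p in each direction, up to 4 called genes per list, genes discussed by the study, 5 neuronal markers and the 4 genes of smallest interaction p. Some genes that this rule or the lists name, 1 of the 34 called genes among them, are not reported here singly, but counts and sums include them. The gene lists and named genes were chosen with earlier results of these data known. Positions on hg19 come from GENCODE, where 59.5% of symbols matched 1 gene, and promoters from RefSeq (GRCh38.p14).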

Additional observations from a re-analysis of the deposited data

Results flagged for a closer look

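In 7 genes the effect of H2O2 differed between the experiments by edgeR's test of the interaction, and each is given as the log2FC in pre-treatment minus that in co-treatment. The difference was 1.99 for SLC8A1 (SE 0.22, adjusted p = 0.00822) and -1.93 for ENC1 (SE 0.22, adjusted p = 0.00822). Both had opposite signs in the 2 experiments, with -0.58 and 1.41 for SLC8A1 in co-treatment and pre-treatment and 1.35 and -0.58 for ENC1. For C8orf4, a regulator of Wnt signalling, the fitted difference was 6.13 (SE 0.76, adjusted p = 0.0166), and since the 3 pre controls held 2 counts in all against 228 in the 3 pre treated libraries, its size depends on the prior count. The ratio of these counts per effective library size was 77.1 (exact 95% interval 21.1 to 641, counting error only). NRP1, a co-receptor of semaphorins and VEGF, differed by 3.01 (SE 0.42, adjusted p = 0.0381), with 0.584 ± 0.212 CPM (SD, n = 3) in pre control and 7.21 ± 1.503 in pre treated libraries.

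Matrix and adhesion genes made up the other 3. The collagen COL3A1 differed by 2.35 (SE 0.33, adjusted p = 0.0381), VCAM1, the endothelial and stromal ligand of integrin alpha 4, by 3.25 (SE 0.47, adjusted p = 0.0381), and integrin alpha 4 itself (ITGA4) by 1.99 (SE 0.30, adjusted p = 0.0466). Only ENC1 of the 7 had a more negative effect in pre-treatment. None of the 7 was called for the common effect, whose fit works against genes with such a difference. With pre control replicates 1 and 2 left out, 8 genes were called, of which 2 were among these 7.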

How the results depend on the processing

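The 34 calls of the common effect became 21 (19 higher and 2 lower, 90.5% higher against 67.6%) with library size alone as the scaling, 470 (164 higher and 306 lower) with no filter on low counts, 477 with DESeq2, 87 with the mean of both effects in the fit of 4 groups, 3 and 69 with the co-treatment and the pre-treatment effect alone, and 5 to 195 with each library left out. Chosen after seeing the data, removal of small RNA loci before scaling gave 52 calls (34 higher and 18 lower), and leaving out pre control replicates 1 and 2 together, so that the lone pre control is assumed to vary like the other groups, gave 27, of which 17 were among the 34. RLE and upper-quartile factors, both other filters, limma-voom, robust estimation, both fold thresholds and the fit with no experiment term kept the count within 1.5 times. The 7 calls of the interaction became 4 with library size alone, 272 with no filter, 114 with DESeq2, 3 with limma-voom and 0 to 2041 with each library left out. The cause of these changes was not tested.

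The labels give the groups the same replicate numbers. With the replicate number as a block, 9 genes were called for the common effect (5 higher and 4 lower, 7 of them among the 34: SSTR2, DRAM1, RP11-54O7.3, SAMD11, AP000479.1, FZD7 and EFNB2) and edgeR called 0 for the interaction, with 1550 at an unadjusted p below 0.05. Deviations of same-numbered treated and control libraries correlated by -0.0740, -0.0853 and -0.0605 in co-treatment and by -0.242, 0.0277 and -0.281 in pre-treatment, so no pairing by number was seen. Each had a higher correlation with another number. Deviations were taken from the mean of each group, which ties these correlations to each other, so they cannot show that the libraries were unpaired.

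Apart from HAS2, which was tested only through its treated libraries, the 34 called genes kept their direction under every alternative in which they were tested. The alternatives reuse libraries on which the calls were made, so the kept direction describes the called genes and is no further support. The sign of CXCR4 turned positive with upper-quartile factors (0.0407), library size alone (0.0406), no filter (0.0112), the filter at 3 libraries (3.61e-05), the pre-treatment effect alone (0.69) and 9 of the libraries left out, over which it ran from -0.36 to 0.11 and, where positive, from 0.04. SLC8A1 turned negative with the co-treatment effect alone (-0.58) and without pre control replicates 1 and 2 (-0.0277), ENC1 with the pre-treatment effect alone (-0.58) and C8orf4 with the co-treatment effect alone (-0.0859). Of 1395 values of named genes under alternatives, 302 lost the threshold, 36 gained it and 18 changed sign. With 3 libraries a group and the spread between replicates seen here, changes that missed the threshold are not shown to be absent.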
